A study of Bos indicus with 11 samples.

Results

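Integrin and laminin chain genes were examined in uterine biopsies of cows that were later found to be pregnant or not. The genes were chosen by name: those whose symbol in the deposited table is an integrin alpha chain (ITGA), an integrin beta chain (ITGB) or a laminin alpha, beta or gamma chain (LAMA, LAMB, LAMC). The table holds 32 such genes among 24616, and 31 of them had a mean of at least 5 normalized counts over the 11 cows, the limit for testing, which 15081 genes of the whole table passed. These were 15 integrin alpha chains, 7 integrin beta chains and 9 laminin chains. The gene left out, ITGAD, had between 0 and 5 reads in each cow.

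RNA-Seq was made from endometrial biopsies of healthy, multiparous Nelore beef cows (Bos indicus), taken 6 days after artificial insemination (AI) from the uterine horn on the side without the corpus luteum. All cows had been synchronized, inseminated at estrus and chosen for similar plasma progesterone on the day of biopsy. They were grouped afterwards, by the diagnosis on day 30, into 6 pregnant (P) and 5 non-pregnant (NP) cows, with 1 biopsy per cow. Cow P617 is labelled pregnant and was kept as P, although a supplementary list of the study names it as non-pregnant.

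Integrins are receptors in the cell membrane, each a pair of 1 alpha and 1 beta chain, that tie a cell to the matrix around it or to other cells. The alpha chain largely sets the ligand: laminin, collagen, proteins with an RGD (arginine-glycine-aspartate) motif such as fibronectin, or counter-receptors on other cells. Laminins are cross-shaped trimers of 1 alpha, 1 beta and 1 gamma chain that form the sheet of the basement membrane, which in the uterus lies under the luminal and glandular epithelium and around blood vessels and smooth muscle cells. In ruminants, integrins and their ligands at the luminal surface are known for their part in the later attachment of the embryo.

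A biopsy of the uterine wall can hold epithelium, stroma, vessels, immune cells and muscle, and the 11 libraries differed in this respect. Of the genes listed as defining the endometrium, PGR, ESR1, HOXA10, HOXA11 and FOXA2 had reads in every cow. FOXL2 had 0 in cow P617, where FOXA2 had 25.98 normalized counts, against at least 148 in every other cow. HOXA10 (4530 and 3187) and HOXA11 (2099 and 1581) were highest in cows P617 and P1541, against at most 2335 and 1406 elsewhere. How much of each biopsy was endometrium was not tested. Cows P617 and P1541 stood apart from the other 9. The mean log2(normalized count + 1) of 12 smooth muscle markers was 14.72 in cow P617 and 14.51 in cow P1541, against 11.22 to 13.81 in the other 9 cows. In each of both cows, 11 of the 12 markers lay above all of these 9 cows. ACTA2 and ACTG2 share 1 row of the deposited table, which counts under both names in this score and wherever this list is used. The same score over 12 epithelial markers was 7.29 and 9.32, against 9.57 to 10.93, and the summed level of these markers was 2809 and 11260 normalized counts, against 13537 to 30443. Reads on genes numbered between 9290949 and 13569085 per cow. In such samples, fewer cells of a type and less RNA per cell cannot be told apart.

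Between P and NP cows, 5 of the 31 genes reached an unadjusted p-value under 0.05 with limma, a linear model fitted to all genes tested on the log2(normalized count + 1) scale. All 5 were higher in NP cows: the laminin chains LAMA2 and LAMB2 and the integrin alpha chains ITGA9, ITGA10 and ITGAL. This is 16.1% of these genes, where 7.84% of all genes tested had such a p-value, 5.49% with NP cows higher and 2.35% with P cows higher. After the Benjamini-Hochberg adjustment over all genes tested, 0 of the 31 genes passed the threshold of 0.1, like 0% of all genes tested, and their adjusted p-values ranged from 0.264 to 0.995. The quasi-likelihood test of edgeR on the recovered reads also called 0 and had the same 5 genes under 0.05 before adjustment. DESeq2 on the same reads called 1 of them, LAMB2, and 1.33% of all genes.

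In 21 of the 31 genes the log2 fold change (NP over P) was above 0, which is 67.7%, where it was above 0 in 50.2% of all genes tested. The median over the 31 genes was 0.20, and over all genes tested it was 0.0018. The laminin chains had a median of 0.07, with 7 of 9 above 0, the integrin alpha chains one of 0.31, with 11 of 15 above 0, and the integrin beta chains one of -0.19, with 3 of 7 above 0. Without cows P617 and P1541, which are described above, the median over the 31 genes was 0.06 with 18 above 0, where over all genes it was -0.02 with 46.3% above 0. The medians of the chain classes then were 0.27 in laminins, 0.07 in integrin alpha chains and 0.04 in integrin beta chains, so that their order depended on these cows. The groups did not overlap in 1 gene, LAMB2, with NP cows higher. Over all genes tested, the groups were apart with NP cows higher in 0.855% and with P cows higher in 0.239%.

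**Figure D1:**
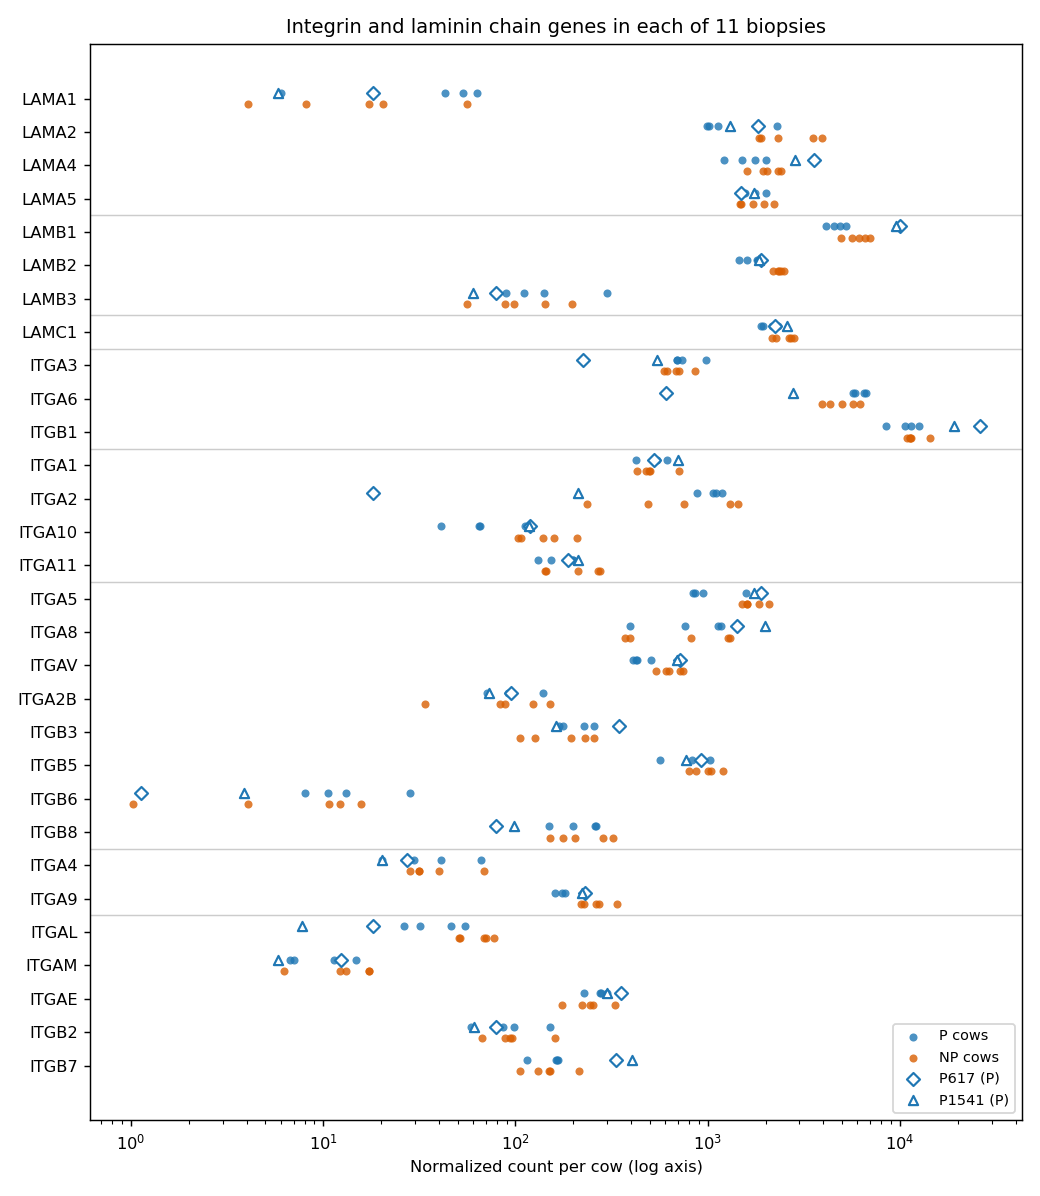
Normalized count of 30 of the 31 genes (log axis) in each cow, with P cows in blue and NP cows in orange, and with cows P617 (diamond) and P1541 (triangle) marked. Counts are not corrected for gene length, so rows cannot be ranked against each other. The groups are separate in LAMB2, and the diamond lies far to the left of the other points in ITGA6 and ITGA2 and to the right of them in ITGB1.

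**Figure D2:**
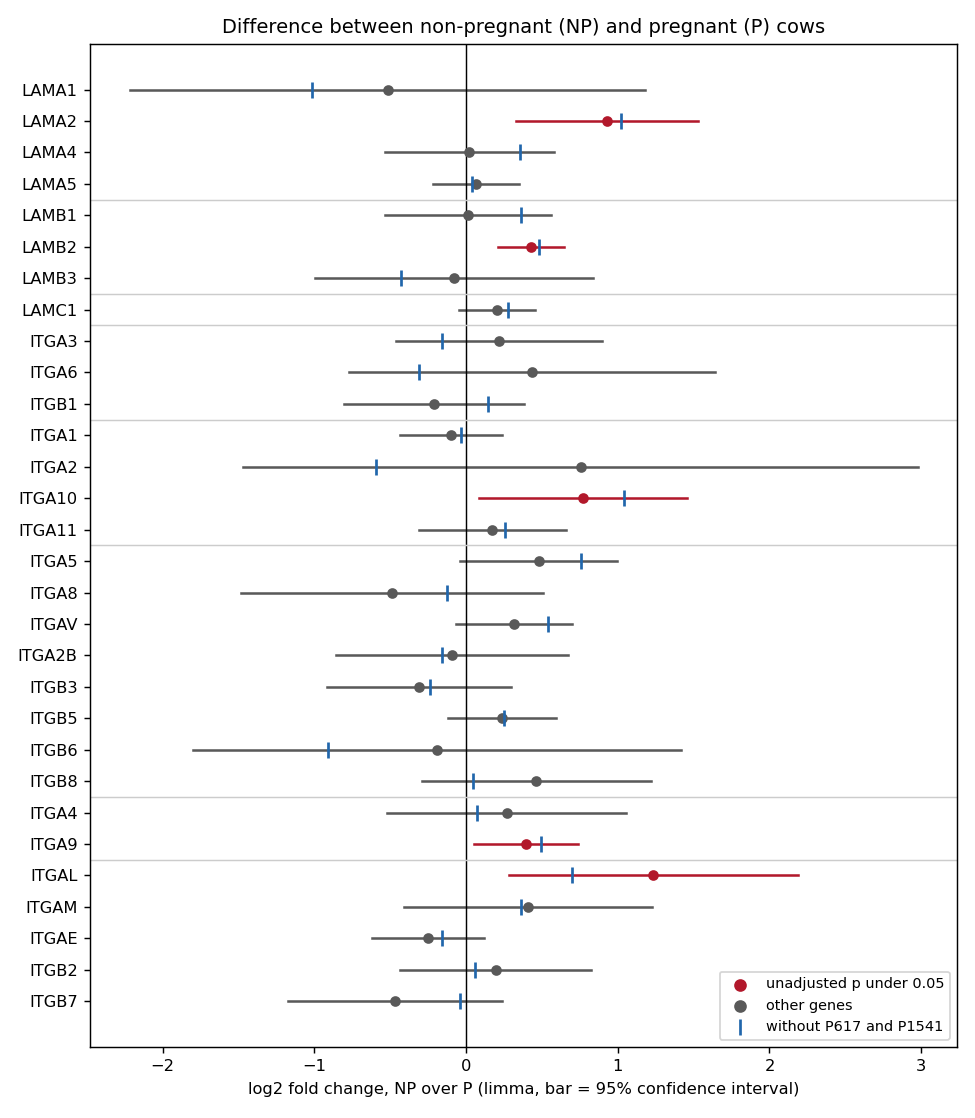
Log2 fold change (NP over P) for 30 of the 31 genes in limma (point) with its 95% confidence interval (bar), and the value without cows P617 and P1541 (blue tick). Red marks the 5 that had an unadjusted p-value under 0.05, which lie between 0.40 and 1.24, and the ticks of ITGA2, ITGA3, ITGA6 and ITGB1 lie on the other side of 0 from their points.

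Among the laminin alpha chains, LAMA2 (ENSBTAG00000010229) was higher in NP cows. LAMA2 encodes the alpha chain of the laminins around muscle fibres, nerves and some vessels, and the deposited table gives its row a second symbol, LOC100848461. P cows had 988 normalized counts in cow P1753, 1019 in P1631, 1127 in P2396, 1303 in P1541, 1828 in P617 and 2297 in P904. NP cows had 1853 in NP638, 1905 in NP2541, 2315 in NP856, 3544 in NP238 and 3924 in NP2810. Of the P cows, P904 alone lay within the range of the NP cows.

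The mean of LAMA2 was 1427 ± 526 normalized counts in P cows (SD, n = 6) and 2708 ± 963 in NP cows (SD, n = 5). Its log2 fold change was 0.93 with a standard error of 0.27, an unadjusted p-value of 0.00576 and an adjusted p-value of 0.371 in limma. The unadjusted p-value stayed under 0.05 in all 11 fits that each left out 1 cow, with log2 fold changes between 0.77 and 1.08. Leaving out P904, the only P cow in the NP range, necessarily set the groups of LAMA2 apart. Cows P617 and P1541, with the most smooth muscle marker RNA, lay inside the range of the other 9 cows, and with the smooth muscle score as a covariate the log2 fold change was 0.70.

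LAMA4, a chain of the laminins under endothelium and around smooth muscle cells, had its highest values in the pair of cows with the most muscle marker RNA. P cows had 1215 normalized counts in P1631, 1510 in P2396, 1755 in P904, 2000 in P1753, 2863 in P1541 and 3591 in P617, and NP cows had 1611 in NP856, 1937 in NP238, 2030 in NP2810, 2316 in NP2541 and 2417 in NP638. The NP values all lay inside the range of the P cows, and the log2 fold change was 0.02 (95% confidence interval -0.54 to 0.58), while the means were 2156 in P and 2062 in NP cows. Without cows P617 and P1541 it was 0.36, with an unadjusted p-value of 0.053.

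LAMA5, the alpha chain of laminins under epithelia and in mature vessels, was the most even of the 4 alpha chains, between 1473 and 2210 normalized counts in the 11 cows. The log2 fold change was 0.07 (95% confidence interval -0.22 to 0.35). LAMA1, an alpha chain of embryonic and some epithelial basement membranes, was scarce, with 4 to 61 reads per cow, and its log2 fold change of -0.52 had a 95% confidence interval of -2.22 to 1.18.

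LAMB2 (ENSBTAG00000022635) encodes the beta chain of laminins in vessel, muscle and nerve basement membranes, where it pairs with LAMA2, LAMA4 or LAMA5 and with LAMC1. P cows had 1455 normalized counts in P2396, 1596 in P1753, 1807 in P1631, 1856 in P1541, 1901 in P617 and 1922 in P904. NP cows had 2199 in NP856, 2316 in NP2541, 2351 in NP2810, 2410 in NP238 and 2488 in NP638. Every NP cow was above every P cow.

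The means were 1756 ± 188 normalized counts in P cows (SD, n = 6) and 2353 ± 108 in NP cows (SD, n = 5), a ratio of 1.34. In limma the log2 fold change of LAMB2 was 0.43 with a standard error of 0.10, an unadjusted p-value of 0.00101 and an adjusted p-value of 0.264, the smallest of the 31 genes and at rank 51 of all genes tested by p-value. DESeq2 gave an adjusted p-value of 0.00426, and across all alternative fits the adjusted p-value ranged from 0.00426 to 0.632, the highest with the smooth muscle score as a covariate. LAMB2 kept an unadjusted p-value under 0.05 in all 11 fits that each left out 1 cow, with log2 fold changes between 0.38 and 0.46. The values of cows P617 and P1541 were within those of the other P cows, and without both cows the log2 fold change was 0.48.

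LAMB1, the beta chain found in most basement membranes early in development and in many adult ones, split the P cows. P cows had 4123 normalized counts in P1631, 4525 in P2396, 4893 in P1753, 5260 in P904, 9544 in P1541 and 10001 in P617, and NP cows had 4937 in NP856, 5658 in NP2541, 6157 in NP2810, 6615 in NP238 and 7001 in NP638. Cows P1541 and P617 lay above every other cow, and 3 of the other 4 P cows lay below every NP cow. With all cows the log2 fold change was 0.01 (95% confidence interval -0.54 to 0.56), while the means were 6391 in P and 6074 in NP cows. Without both cows it was 0.36, with an unadjusted p-value of 0.0173 and an adjusted p-value of 0.331.

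LAMB3 encodes the beta chain of laminin-332, which anchors epithelial cells to their basement membrane. It ranged from 60.0 to 299 normalized counts in P cows and from 56.1 to 196 in NP cows, with cow P1631 at the top. Between the groups its log2 fold change was -0.08 with a standard error of 0.42. LAMA3, LAMC3, ITGA7, ITGAX and ITGB4 were not analysed here.

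LAMC1, the gamma chain shared by most laminins, was one of the 3 laminin chains with the highest mean counts. P cows had 1889 normalized counts in P1631, 1936 in P904, 2174 in P1753, 2248 in P617, 2337 in P2396 and 2592 in P1541, and NP cows had 2170 in NP856, 2278 in NP2541, 2653 in NP238, 2721 in NP2810 and 2804 in NP638. The upper 3 NP cows lay above all P cows and the rest overlapped. For LAMC1 the log2 fold change was 0.20 with a standard error of 0.12 and an adjusted p-value of 0.738, and its 95% confidence interval reached from -0.05 to 0.45. LAMA2, LAMB2 and LAMC1, which can form 1 trimer, had means 1.90, 1.34 and 1.15 times as high in NP cows as in P cows. This trimer is not the only one possible, as LAMB2 also pairs with LAMA4 or LAMA5. The log2 fold changes of LAMA4, LAMA5 and the beta chain LAMB1 were 0.02, 0.07 and 0.01 with all cows. Without cows P617 and P1541 they were 0.36, 0.04 and 0.36. Whether any trimer differed between the groups was not tested.

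**Figure D3:**
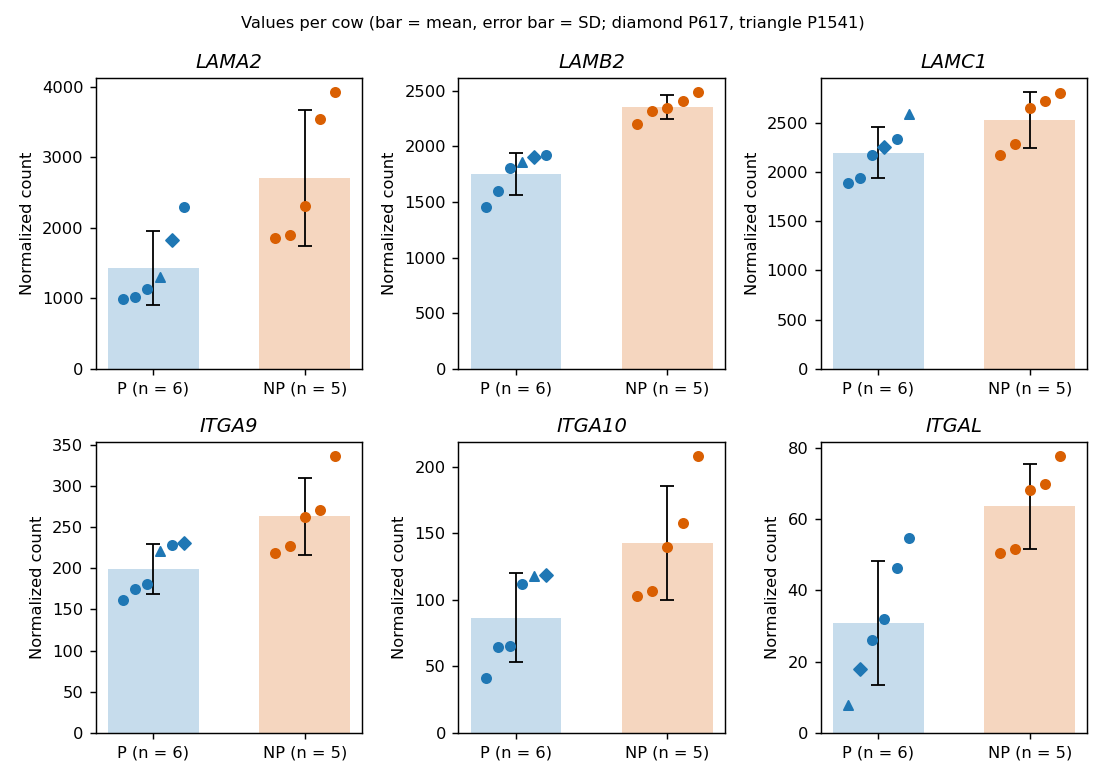
Normalized counts per cow of the possible trimer partners LAMA2, LAMB2 and LAMC1 (top) and of ITGA9, ITGA10 and ITGAL (bottom), with bars at the group means, error bars of 1 SD, a diamond for cow P617 and a triangle for cow P1541. The 5 NP cows lie above all P cows in LAMB2, between 2199 and 2488, and in the other panels the groups overlap.

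Among the integrins that bind laminin, ITGA6 pairs with ITGB1 or ITGB4 and holds epithelial cells to their basement membrane. P cows had 608 normalized counts in P617, 2792 in P1541, 5729 in P904, 5809 in P1753, 6526 in P2396 and 6629 in P1631, and NP cows had 3933 in NP2810, 4332 in NP638, 5005 in NP2541, 5688 in NP238 and 6197 in NP856. Cow P617 had 0.106 times and cow P1541 had 0.487 times the median of the other 9 cows. The other 4 P cows were all above the median of the NP cows. The log2 fold change turned from 0.43 (95% confidence interval -0.77 to 1.64) with all cows to -0.31 (unadjusted p-value 0.0566) without P617 and P1541.

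ITGA3, the other laminin-binding alpha chain measured, which is abundant in epithelia, was also lowest in these cows, at 225 normalized counts in P617 and 546 in P1541, against 592 to 986 in the other 9. Its log2 fold change was 0.22 with all cows and -0.16 without both. ITGB1, the beta chain shared by the laminin, collagen and several RGD receptors, was highest in them. P cows had 8436 normalized counts in P1631, 10633 in P2396, 11493 in P1753, 12615 in P904, 19081 in P1541 and 26151 in P617, and NP cows had 10854 in NP2541, 11244 in NP856, 11290 in NP2810, 11497 in NP238 and 14391 in NP638. Apart from P617 and P1541 the groups overlapped. The log2 fold change of ITGB1 was -0.21 (95% confidence interval -0.81 to 0.38) with all cows and 0.14 without both cows.

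Of the 4 collagen-binding alpha chains, which all pair with ITGB1, ITGA10 had an unadjusted p-value under 0.05. ITGA10 (ENSBTAG00000008373) is best known from cartilage and mesenchymal cells. P cows had 41.1 normalized counts in P1631, 64.8 in P2396, 65.4 in P1753, 112 in P904, 118 in P1541 and 119 in P617. NP cows had 103 in NP2541, 107 in NP2810, 140 in NP856, 158 in NP238 and 208 in NP638. The P cows fell into 3 low and 3 higher values, and the higher ones overlapped with the lowest NP cows.

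The means of ITGA10 were 86.7 ± 33.6 normalized counts in P cows (SD, n = 6) and 143 ± 42.9 in NP cows (SD, n = 5). Its log2 fold change was 0.77 with a standard error of 0.31, an unadjusted p-value of 0.0311 and an adjusted p-value of 0.564 in limma. The unadjusted p-value stayed under 0.05 in 5 of the 11 fits that left out 1 cow, with values from 0.017 to 0.0851, and it was above 0.05 without P1631, P1753, P2396, NP238, NP638 or NP856. Without cows P617 and P1541 the log2 fold change was 1.04.

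ITGA2, a collagen and laminin receptor chain of epithelial cells and platelets, varied most of all 31 genes, by a factor of 79.9 between the lowest and the highest cow. P cows had 18.1 normalized counts in P617, 211 in P1541, 883 in P1631, 1070 in P1753, 1106 in P904 and 1181 in P2396, and NP cows had 235 in NP2810, 491 in NP2541, 750 in NP638, 1310 in NP238 and 1444 in NP856. Cow P617 had 16 reads. ITGA2 was also low in an NP cow, NP2810, whose epithelial score of 10.03 was inside the range of the other cows. The markers in this score differed in NP2810. CDH1 (926 normalized counts) and GRHL2 (70.3) were lower there than in all cows but P617 and P1541. KRT18 (2800) and KRT19 (1891) were higher there than in the other NP cows. The part of epithelium in its ITGA2 level was not tested. Its 95% confidence interval for the log2 fold change, -1.47 to 2.98, was the widest of the 31.

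ITGA1, a collagen receptor chain of smooth muscle, stromal and endothelial cells, and ITGA11, a collagen receptor chain of fibroblasts, varied little. ITGA1 lay between 426 and 707 normalized counts and ITGA11 between 130 and 275 in the 11 cows. Their log2 fold changes were -0.10 (95% confidence interval -0.43 to 0.24) and 0.17 (95% confidence interval -0.31 to 0.66).

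Of the 8 chains of RGD-binding integrins, 0 had an unadjusted p-value under 0.05 with all cows, whether by limma, edgeR or DESeq2. ITGA5, which with ITGB1 forms the main fibronectin receptor, came nearest. P cows had 839 normalized counts in P2396, 855 in P1631, 951 in P1753, 1579 in P904, 1733 in P1541 and 1893 in P617, and NP cows had 1511 in NP238, 1609 in NP2541, 1609 in NP638, 1847 in NP2810 and 2087 in NP856. The P cows formed a low and a high trio, and the high trio lay within the range of the NP cows. For ITGA5 the log2 fold change was 0.48 with a standard error of 0.24 and an unadjusted p-value of 0.0661, and without cows P617 and P1541 it was 0.76 with an unadjusted p-value of 0.0022 and an adjusted p-value of 0.179.

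ITGAV, the alpha chain that pairs with ITGB3, ITGB5, ITGB6 and ITGB8 to bind vitronectin, osteopontin or latent TGF-beta, had the same pair of cows at the top of its P group. They had 720 and 689 normalized counts, the other 4 P cows had 409 to 507 and the NP cows 539 to 746. Without this pair the groups were apart, the log2 fold change being 0.54 with an unadjusted p-value of 0.00128, and with all cows it was 0.31 with an unadjusted p-value of 0.099. ITGA8, an alpha chain of smooth muscle and other mesenchymal cells that binds nephronectin and fibronectin, had 395 normalized counts in P904, 761 in P2396, 1128 in P1753, 1172 in P1631, 1417 in P617 and 1985 in P1541 among P cows. NP cows had 370 in NP238, 396 in NP2810, 822 in NP856, 1276 in NP638 and 1313 in NP2541. Each group held both low and high cows, and the log2 fold change was -0.49 (95% confidence interval -1.48 to 0.50).

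The beta partners of ITGAV differed less between the groups than among cows. ITGB5, a vitronectin receptor chain, had 564 normalized counts in P2396, 769 in P1541, 825 in P1753, 924 in P617, 939 in P904 and 1023 in P1631, and NP cows had 799 in NP856, 871 in NP238, 999 in NP638, 1045 in NP2810 and 1207 in NP2541. It thus overlapped in most cows, with a log2 fold change of 0.24 (95% confidence interval -0.12 to 0.59). ITGB3, a chain of vessels, platelets and osteoclasts and a known luminal marker of the receptive human endometrium, had 162 in P1541, 168 in P2396, 177 in P1631, 226 in P1753, 255 in P904 and 345 in P617, and NP cows had 105 in NP2810, 127 in NP2541, 195 in NP856, 230 in NP638 and 255 in NP238. The lowest pair were NP cows and the highest was P617, and the log2 fold change was -0.31 (95% confidence interval -0.91 to 0.30).

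ITGB6, an epithelial chain that activates latent TGF-beta, was near the lower limit of testing. P cows had 1.13 normalized counts in P617, 3.87 in P1541, 7.99 in P1631, 10.5 in P904, 13.1 in P2396 and 28.2 in P1753, and NP cows had 1.02 in NP2810, 4.05 in NP238, 10.8 in NP856, 12.2 in NP638 and 15.7 in NP2541. It had 1 to 28 reads per cow, the groups overlapped, and the log2 fold change was -0.19 (95% confidence interval -1.80 to 1.42). ITGB8, another activator of TGF-beta, was lowest in P617 (79.1 normalized counts) and P1541 (97.8) and lay between 150 and 322 in the other 9 cows. Its log2 fold change was 0.46 with all cows and 0.04 without both. ITGA2B, the alpha chain of the platelet fibrinogen receptor, ranged from 33.6 to 151 with a log2 fold change of -0.09 (95% confidence interval -0.85 to 0.67), and of the other platelet markers listed 0 passed the limit for testing.

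ITGA9 (ENSBTAG00000016566), whose product binds tenascin, osteopontin, VCAM1 and VEGF with ITGB1 and is known from lymphatic vessels and smooth muscle, was higher in NP cows. P cows had 161 normalized counts in P1631, 174 in P904, 180 in P2396, 221 in P1541, 228 in P1753 and 230 in P617, and NP cows had 218 in NP2810, 227 in NP2541, 262 in NP856, 271 in NP238 and 336 in NP638. The upper 3 NP cows lay above all P cows, and the lower pair lay among the upper P cows.

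The means of ITGA9 were 199 ± 30.6 normalized counts in P cows (SD, n = 6) and 263 ± 46.5 in NP cows (SD, n = 5). In limma the log2 fold change was 0.40 with a standard error of 0.16, an unadjusted p-value of 0.0269 and an adjusted p-value of 0.546. It kept an unadjusted p-value under 0.05 in 6 of the 11 fits that left out 1 cow, and the p-value was above 0.05 without P904, P1631, P2396, NP238 or NP638, at most 0.0803. With the smooth muscle score as a covariate it was 0.00269. ITGA4, the related chain of lymphocytes that binds VCAM1 and fibronectin and whose row carries a second symbol, LOC100849658, ranged from 20.1 to 66.5 in P cows and from 28.3 to 68.2 in NP cows, with a log2 fold change of 0.27 (95% confidence interval -0.52 to 1.06).

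Among the leukocyte integrins, ITGAL (ENSBTAG00000007103), the alpha chain of LFA-1, the receptor of T cells and other leukocytes for ICAM1, had the largest log2 fold change of the 31 genes. P cows had 7.74 normalized counts in P1541, 18.1 in P617, 26.2 in P1753, 32.0 in P1631, 46.4 in P2396 and 54.6 in P904, and NP cows had 50.6 in NP238, 51.7 in NP638, 68.3 in NP2810, 69.9 in NP856 and 77.6 in NP2541. Only P904 of the P cows reached the NP range. The reads behind these values numbered 8 to 57 in P cows and 50 to 99 in NP cows.

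The means of ITGAL were 30.8 ± 17.5 normalized counts in P cows (SD, n = 6) and 63.6 ± 11.9 in NP cows (SD, n = 5). Its log2 fold change was 1.24 with a standard error of 0.43, an unadjusted p-value of 0.0153 and an adjusted p-value of 0.484 in limma. The unadjusted p-value stayed under 0.05 in all 11 fits that left out 1 cow. Leaving out P904, the only P cow in the NP range, necessarily set the groups of ITGAL apart. The log2 fold change of ITGAL was 0.70 without P617 and P1541, with an unadjusted p-value of 0.0292, and 0.71 with the smooth muscle score as a covariate, with an unadjusted p-value of 0.123.

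ITGB2, the beta partner of ITGAL and ITGAM on leukocytes, ranged from 58.4 to 151 normalized counts in P cows and from 66.8 to 160 in NP cows, with a log2 fold change of 0.19 (95% confidence interval -0.43 to 0.82). Thus the partner of ITGAL did not pass the same threshold, and the difference between both chains was not tested. ITGAM, a chain of macrophages, neutrophils and natural killer cells, had 6 to 17 reads per cow and a log2 fold change of 0.41 (95% confidence interval -0.41 to 1.22). The mean log2(normalized count + 1) of 10 immune cell markers was 6.25 ± 0.39 in P cows (SD, n = 6) and 6.90 ± 0.50 in NP cows (SD, n = 5). Of these markers, 5 of 10 had an unadjusted p-value under 0.05, namely PTPRC, CD14, CD68, CSF1R and CD163, all higher in NP cows. The T cell markers CD3E, CD3D and CD2 were not among them, with unadjusted p-values of 0.271, 0.718 and 0.102 in limma. Without cows P617 and P1541, 2 of 10 were under 0.05. Over all genes tested, 5.49% passed with NP cows higher, and 7.14% without these cows. The summed level of the 10 markers was 804 to 1815 normalized counts in P cows and 1248 to 2295 in NP cows. Their part in the level of ITGAL was not tested.

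ITGAE and ITGB7 encode the chains of the receptor by which lymphocytes within epithelia bind E-cadherin, and ITGB7 also pairs with ITGA4. ITGAE had 226 to 352 normalized counts in P cows and 175 to 330 in NP cows, with a log2 fold change of -0.25 (95% confidence interval -0.62 to 0.12). ITGB7 had 405 normalized counts in P1541 and 333 in P617, against 106 to 213 in the other 9 cows. These were the cows with the lowest immune cell scores, 5.87 and 6.01 against 6.13 to 7.64, but the T cell markers in the score differed. CD3E had 56.1 in P1541 and 141 in P617, against 86.0 to 228 in the other 9 cows. CD3D had 32.9 and 28.2, against 11.2 to 106, and CD2 had 21.29 and 19.2, against 21.31 to 97.9. The part of lymphocytes in the level of ITGB7 was not tested. The log2 fold change of ITGB7 was -0.47 (95% confidence interval -1.17 to 0.24) with all cows and -0.04 without this pair.

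Across the 31 genes, cows P617 and P1541 both lay above the other 9 cows in 5, namely ITGB1, ITGA8, LAMB1, LAMA4 and ITGB7, and below them in 6, among them ITGA2, ITGA3, ITGA6, ITGB8 and ITGAL. These are 16.1% and 19.4% of the genes, near the 17.6% and 14.7% of all genes tested in which both cows lay above or below the rest. Other chains known from muscle, namely ITGA1, ITGA9, LAMA2 and LAMB2, and from epithelium, namely LAMA5, LAMB3 and ITGB6, did not lie above or below all 9 in both cows. Of the epithelial chains, ITGB6 had 0.105 and 0.36 times the median of the other 9 in P617 and P1541. LAMB3 had 0.711 and 0.54 times and LAMA5 0.866 and 1.01 times this median. Without both cows, 9 of the 31 genes had an unadjusted p-value under 0.05, all higher in NP cows, where 7.14% of the genes tested passed with NP cows higher and 3.97% with P cows higher. These were the 5 genes named above with ITGA5, ITGAV, LAMB1 and LAMC1. The groups then did not overlap in LAMB2 and ITGAV, where over all genes 2.49% had NP cows apart and higher and 1.18% had P cows apart and higher. After adjustment, 0 of the 31 genes passed in this fit, where 0.113% of all genes did.

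**Figure D4:**
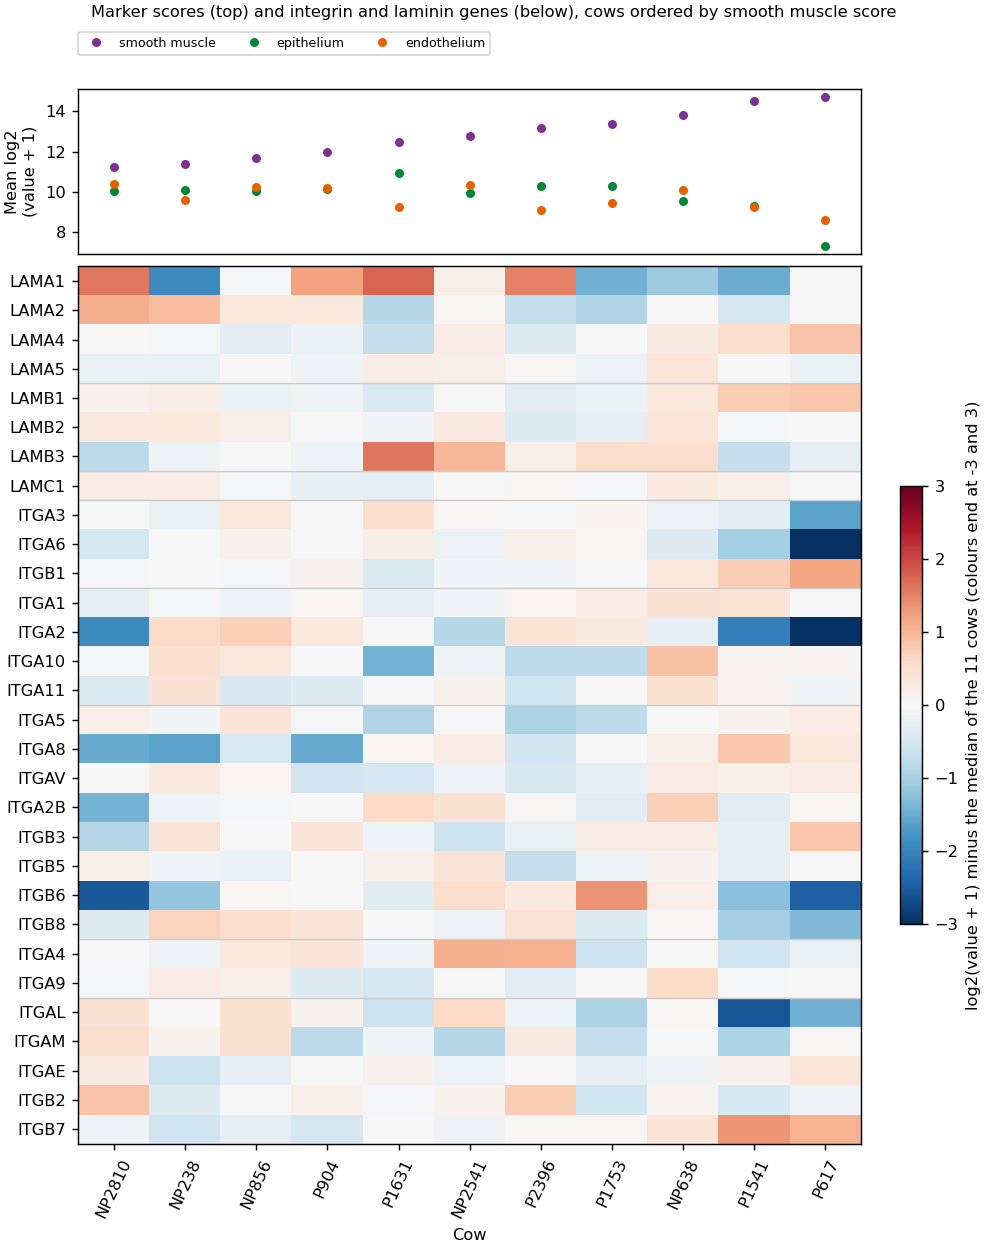
Mean log2(normalized count + 1) of the smooth muscle, epithelial and endothelial markers in each cow (top), and log2(normalized count + 1) of 30 of the 31 genes, each minus its median over the 11 cows (bottom, red above and blue below), with cows ordered by smooth muscle score. At the right end cows P1541 and P617, with smooth muscle scores of 14.51 and 14.72, are blue in ITGA6 and ITGA2 and red in LAMB1, ITGB1 and ITGB7, while LAMB2 stays near its median in them.

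The group means of several marker scores differed, but the groups overlapped in each score, and no score was tested between them. After adjustment in limma 0 of these markers passed, and DESeq2 called 1 endothelial and 1 stromal marker, where it called 1.33% of all genes. Over all genes tested, 5.49% had an unadjusted p-value under 0.05 with NP cows higher and 2.35% with P cows higher. Without cows P617 and P1541 these shares were 7.14% and 3.97%. The endothelial score (10 markers) was 9.31 ± 0.51 in P cows (SD, n = 6) and 10.13 ± 0.33 in NP cows (SD, n = 5), with 9 of 10 markers at an unadjusted p-value under 0.05 and higher in NP cows, and 7 of 10 without cows P617 and P1541. The summed level of these markers was 4869 to 14968 normalized counts in P cows and 9048 to 16424 in NP cows. The stromal score (8 markers) was 13.10 ± 0.50 and 13.65 ± 0.13, with 3 of 8 markers under 0.05 and higher in NP cows, and 8 of 8 without cows P617 and P1541. Their sum was 118334 to 356082 in P cows and 245048 to 337920 in NP cows. The smooth muscle score was 13.37 ± 1.09 and 12.17 ± 1.10, with 2 of 12 markers under 0.05 and higher in P cows, and 0 of 12 without cows P617 and P1541. The epithelial score was 9.70 ± 1.29 and 9.93 ± 0.21, with 1 of 12 markers under 0.05, KRT7, higher in P cows although the mean score was higher in NP cows. Without cows P617 and P1541, 3 of 12 were under 0.05 and higher in P cows. None of these markers was at 0 in any cow. LAMA2, LAMB2, ITGA9 and ITGA10 are known from vessels, muscle or stromal cells, and the part of these cell types in their levels was not tested. With the smooth muscle score as a covariate 7 of the 31 genes had an unadjusted p-value under 0.05, including LAMA2, LAMB2, ITGA9 and ITGA10. All 7 were higher in NP cows, where 4.07% of all genes passed with NP cows higher and 1.33% with P cows higher. With the epithelial score as a covariate 7 did, including all 5, and all 7 were higher in NP cows, where 8.12% of all genes passed with NP cows higher and 4.39% with P cows higher. After adjustment 1 gene, LAMB2, passed in the latter fit, like 0.862% of all genes.

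The other genes with which integrins and laminins work were counted from lists. Of 17 partners of laminin in the basement membrane, 5 had an unadjusted p-value under 0.05 and all were higher in NP cows. With the smallest p-values, the log2 fold changes were 0.67 for FBLN1, a fibulin that binds laminin, 1.30 for EGFLAM (pikachurin), a ligand of dystroglycan, and 0.55 for AGRN (agrin), which links laminin to dystroglycan. These 3 were also called by DESeq2, which called 1.33% of all genes. Their adjusted p-values in limma were 0.241, 0.243 and 0.264. The collagen IV chains COL4A1 and COL4A2, the main network of the basement membrane, had log2 fold changes of 0.34 and 0.28, with adjusted p-values of 0.796 and 0.867.

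Of 16 integrin ligands, 4 had an unadjusted p-value under 0.05, all higher in NP cows, where 5.49% of all genes tested did with NP cows higher. ICAM1, the ligand of the integrin that ITGAL forms with ITGB2, had a log2 fold change of 1.18 and an adjusted p-value of 0.147 in limma, and it was called by DESeq2. FBN1 (fibrillin), which ITGA5 and ITGAV receptors bind, had 0.49, and TGFB1, whose latent form ITGAV receptors bind, had 0.67. FN1 (fibronectin), the ligand of ITGA5, had 0.37 with an adjusted p-value of 0.634, and the other 12 ligands did not pass.

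Of 21 genes of the adhesion complex that joins integrins to actin, 3 had an unadjusted p-value under 0.05, of which 1 had higher values in NP cows and 2 in P cows. The shares over all genes tested were 5.49% with NP cows higher and 2.35% with P cows higher. PARVB (beta-parvin) had a log2 fold change of 0.91, and PARVA (alpha-parvin) and ACTN1 (alpha-actinin), both abundant in smooth muscle, had -0.65 and -0.87. Without cows P617 and P1541 the latter pair had log2 fold changes of -0.51 and -0.44, with unadjusted p-values of 0.0696 and 0.125. Of the hemidesmosome genes other than integrins and laminins, CD151, a tetraspanin bound to ITGA6 and ITGA3, was tested and had a log2 fold change of -0.04 (adjusted p-value 0.962).

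**Figure D5:**
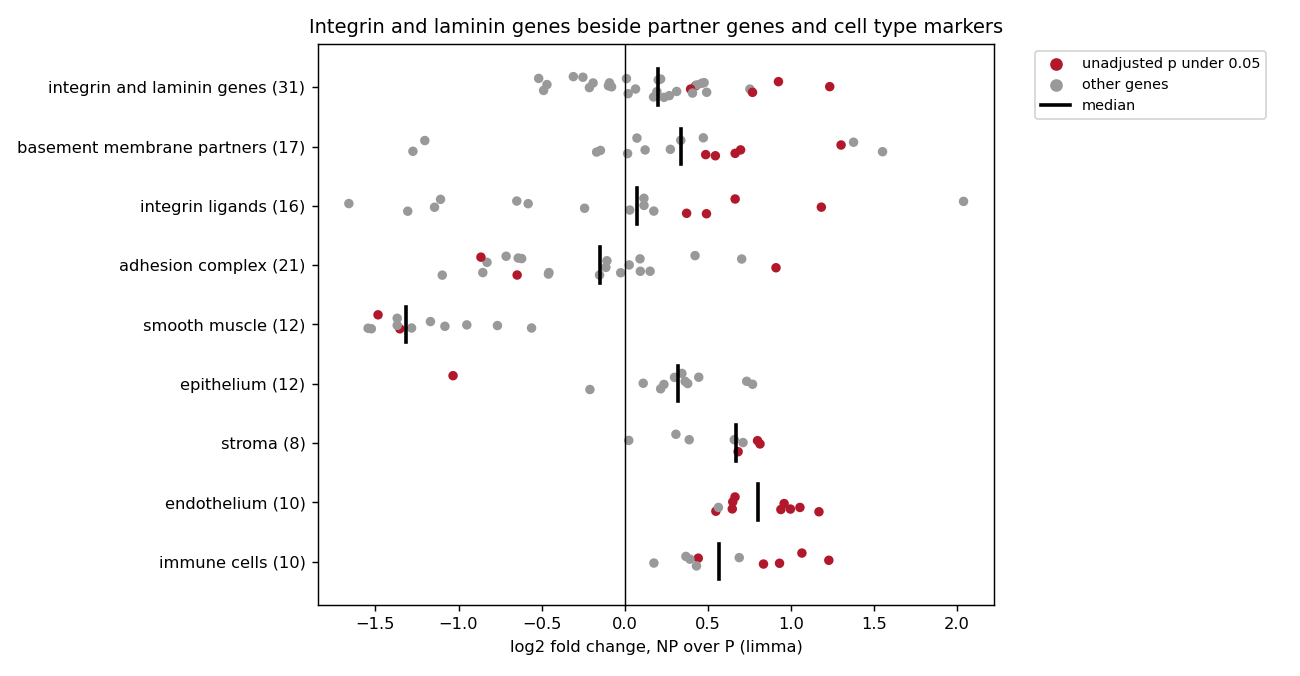
Log2 fold changes (NP over P) in limma for the 31 integrin and laminin genes and for lists of their partners and of cell type markers (number of genes in brackets), with genes at an unadjusted p-value under 0.05 in red and the median as a black line. The medians are 0.20 for the integrin and laminin genes, 0.34 for the basement membrane partners, -0.15 for the adhesion complex, -1.32 for smooth muscle and 0.80 for endothelium.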

How the data were processed

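Per the labels and the methods of the study, the authors mapped Seqyclean-filtered paired-end reads of polyA RNA with Bowtie2 2.1.0 to masked UMD3.1, counted reads per gene with HTSeq 0.5.4p2 and divided them by DESeq2 size factors. The deposited values are these normalized counts (a signal at or above 0). Genes carry Ensembl identifiers; the annotation release and strand use are not given in the sources used here, so counts of overlapping and antisense genes are uncertain. Whole reads were recovered for 100% of values (tolerance 0.01), 1 read being worth 0.784 to 1.14 normalized counts.

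Genes whose mean was at least 5, 15081 in number, were fitted with limma 3.58.1 (trend, R 4.3.3) on log2(value + 1), which understates folds of scarce genes, with Benjamini-Hochberg adjustment and the study's threshold of 0.1. Alternatives were edgeR 4.0.16, DESeq2 1.42.0 (without a prior or independent filtering) and limma-voom on recovered reads, TMM scaling, no filter, a minimum mean of 10, pseudocounts of 0.5 and 5, marker score covariates, leaving out P617 and P1541, and leaving out each cow. Fits were also run on simulated independent counts with known changes. These held no differences in cell types between cows, so they cannot show how the fits handle such differences.

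Genes and lists were chosen with earlier results of these data known. Values per cow are given for genes with an unadjusted p-value under 0.05 or without overlap, the 3 highest means among integrin alpha, integrin beta and laminin chains, and the 3 largest ratios between cows, with up to 3 genes per direction from each partner list. Other genes named were chosen after their values were seen. The values of 1 of the 31 genes are not reported here, and it enters the counts and medians only.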

Additional observations from a re-analysis of the deposited data

Results flagged for a closer look

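In 5 of the 62 sets of values examined (31 genes in each group), 1 cow lay far from the rest of its group by Dixon's 95% criterion, and chance sets apart about 1 in 20. LAMB3, the beta chain of laminin-332, had 299 normalized counts in cow P1631, and the next P cow had 141. ITGA2B, the platelet alpha chain, had 139 normalized counts in the same cow, and the next P cow had 94.9. In cow NP638, ITGB1 had 14391 normalized counts, where the next NP cow had 11497, and the collagen receptor chain ITGA1 had 707, where the next had 503. NP638 was also the NP cow with the most smooth muscle marker RNA, a score of 13.81, and it had the highest value of all 11 cows in 8 of the 31 genes. ITGA4 had 68.2 normalized counts in cow NP2541, and the next NP cow had 39.8. The part of muscle in the values of NP638 was not tested.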

How the results depend on the processing

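Of 659 alternative log2 fold changes of 30 of the 31 genes, 618 kept their direction and their side of the threshold, 2 newly passed it (LAMB2 in DESeq2 and with the epithelial score as a covariate, adjusted p = 0.00426 and 0.0839) and 39 changed sign. These 39 fell on 13 genes, and 17 genes, among them all 5 with an unadjusted p-value under 0.05, kept their sign in every fit. The count past the adjusted threshold, 0 in the main comparison, was 1 in DESeq2 and 1 with the epithelial covariate, where 1.33% and 0.862% of all genes passed. The count at an unadjusted p-value under 0.05 and higher in NP cows was 5 in the main comparison and 9 without cows P617 and P1541. It ranged from 3 to 8 when 1 cow was left out, with 3 without P1631, P2396, NP238 or NP638 and 8 without P1541. Over all genes tested, 1182 had such a p-value in either direction in the main comparison, 1669 without P617 and P1541, and 854 to 1549 when 1 cow was left out. These numbers were 1242, 1170, 881 and 1282 without P1631, P2396, NP238 and NP638, and 917 without P1541. The count of the 31 genes at such a p-value and higher in P cows ranged from 0 to 1, the latter being ITGAE without NP2810. The count without overlap was 1 in the main comparison, 2 without P617 and P1541, and 1 to 3 when 1 cow was left out. It was 3 without P904 (LAMA2, LAMB2 and ITGAL), the only P cow in the NP range of LAMA2 and of ITGAL. Shares over all genes without overlap are not given for the fits that left out 1 cow, so these counts cannot be read against them.

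With the smooth muscle score as a covariate, the log2 fold change took the other sign for ITGA1 (0.094), ITGA2 (-0.39), ITGA2B (0.14), ITGA3 (-0.15), ITGA6 (-0.25), ITGA8 (0.29), ITGB1 (0.15) and ITGB7 (0.084). Without cows P617 and P1541 it did for ITGA2 (-0.60), ITGA3 (-0.16), ITGA6 (-0.31) and ITGB1 (0.14). In edgeR and DESeq2 it did for ITGA2B (0.048 and 0.035), LAMA4 (-0.051 and -0.064) and LAMB1 (-0.059 and -0.074). The cause was not tested. When 1 cow was left out, the sign changed for ITGA2 (-0.13 to 1.14), ITGA2B (-0.29 to 0.24), ITGA3 (-0.061 to 0.364), ITGA6 (-0.084 to 0.605), ITGB6 (-0.60 to 0.29), LAMA4 (-0.12 to 0.19), LAMA5 (-0.018 to 0.128), LAMB1 (-0.10 to 0.16) and LAMB3 (-0.30 to 0.20). ITGB6 was left out by the minimum mean of 10. No paired analysis was possible because P and NP cows share no replicate numbers. ITGB6, ITGAM and LAMA1 had the fewest reads, so that counting error weighs most in them.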

Other observations

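The partner lists held values that stood out in cow P617 and were picked after they had been seen. The fibrinogen chains FGA and FGG, ligands of ITGB3 and ITGAM integrins, had 2832 and 3677 normalized counts in cow P617, against 1.01 to 16.3 for FGA and 1.08 to 21.3 for FGG in the other 10 cows. Vitronectin (VTN), a ligand of ITGAV integrins, had 336 in the same cow and at most 14.5 in the others. Of the 6 collagen IV chains, COL4A5 was at 13484 and 8477 and COL4A6 at 8592 and 2649 in cows P617 and P1541, above the other 9 cows. In the same cows COL4A4 had 15.8 and 110, below the other 9, and COL4A3 had 4.52 and 65.8, against 63.2 to 1142 in the other 9. COL4A1 had 11831 and 13108, against 5618 to 14081, and COL4A2 had 10249 and 9530, against 3315 to 10443, so neither chain stood apart.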
